A study of Homo sapiens with 2 samples.

Results

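The FOS and JUN families were examined in a map of ZFX on chromatin of the human medulloblastoma cell line DAOY, a line derived from a tumour of the cerebellum. The 7 genes are FOS, FOSB, FOSL1 and FOSL2 of the FOS family and JUN, JUNB and JUND of the JUN family. They were chosen by the peaks deposited near them, so counts, widths and scores of these peaks are given as a description with no test. Each gene was represented by 1 transcription start site (TSS) on hg19, and its peaks were those that overlapped the 5 kb on either side of it. The TSS were at 75745481 on chromosome 14 for FOS, 45971253 on chromosome 19 for FOSB, 65667997 on chromosome 11 for FOSL1 and 28615779 on chromosome 2 for FOSL2. Those of the JUN family were at 59249785 on chromosome 1 for JUN and at 12902310 and 18392466 on chromosome 19 for JUNB and JUND; FOSL1, JUN and JUND lie on the minus strand. The windows took in 26 of the 14471 peaks of the list, 12 at the 4 FOS family genes and 14 at the 3 JUN family genes.

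The study held 2 samples of DAOY cells kept in medium with serum, and its labels name no treatment. The ZFX sample is chromatin pulled down with a rabbit polyclonal antibody against ZFX and sequenced (ChIP-seq), and the input sample is sheared chromatin that skipped this step. The peaks come from the single ZFX library; the input sample was not used here. With 1 library and no read counts, no replicate error or counting error can be given for a peak, and whether input chromatin is also enriched at these genes was not tested. The score is the authors' own, without a stated unit, and it was used only to describe and rank peaks within the list.

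FOS and JUN proteins carry a basic leucine zipper, pair with one another through it and bind DNA as the transcription factor AP-1. FOS, FOSB, JUN and JUNB are classic immediate early genes, transcribed within minutes after serum, growth factors or depolarisation of neurons, whereas JUND is expressed more steadily and FOSL1 and FOSL2 usually follow later. JUN, JUNB and JUND have no introns. ZFX is a zinc finger protein encoded on the X chromosome, known to bind promoters rich in CpG, and AGGCCT is the core of its known motif.

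Promoter sequences are shown for FOS and JUNB, which had the longest runs of peaks, for FOSB and JUND, which had the highest scores, and for JUN, the one promoter of the 6 found that holds the ZFX core. Each is the 250 bases before the gene start, 5′ to 3′, from RefSeq on GRCh38.p14. They lie at chr14:75278578-75278827, plus strand (FOS), at chr19:12791236-12791485, plus strand (JUNB), at chr19:45467746-45467995, plus strand (FOSB), at chr19:18281623-18281872, minus strand (JUND) and at chr1:58784048-58784297, minus strand (JUN). Capitals mark the ZFX core AGGCCT, the half-site TGACG of the cyclic AMP response element (CRE) and the TATA box TATAAA, on either strand; the first 5 of the 8 capitals in JUND and the last 5 are overlapping half-sites on opposite strands. Gene starts in this table may lie at other bases than the hg19 TSS used for the peaks, and no position was carried from one build to the other.

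FOS: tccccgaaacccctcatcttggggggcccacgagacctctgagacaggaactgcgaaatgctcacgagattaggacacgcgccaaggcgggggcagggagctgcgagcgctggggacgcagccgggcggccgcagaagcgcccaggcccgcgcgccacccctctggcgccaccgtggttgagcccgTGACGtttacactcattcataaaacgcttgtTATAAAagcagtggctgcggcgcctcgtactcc

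JUNB: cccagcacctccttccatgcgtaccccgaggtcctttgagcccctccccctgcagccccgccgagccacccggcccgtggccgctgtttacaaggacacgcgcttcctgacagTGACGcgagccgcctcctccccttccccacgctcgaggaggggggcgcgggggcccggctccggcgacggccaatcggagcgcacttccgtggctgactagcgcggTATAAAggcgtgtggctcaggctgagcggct

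FOSB: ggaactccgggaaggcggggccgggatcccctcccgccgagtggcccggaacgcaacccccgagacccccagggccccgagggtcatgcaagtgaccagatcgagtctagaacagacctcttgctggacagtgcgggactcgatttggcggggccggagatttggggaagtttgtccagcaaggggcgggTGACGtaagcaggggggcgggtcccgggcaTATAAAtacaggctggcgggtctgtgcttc

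JUND: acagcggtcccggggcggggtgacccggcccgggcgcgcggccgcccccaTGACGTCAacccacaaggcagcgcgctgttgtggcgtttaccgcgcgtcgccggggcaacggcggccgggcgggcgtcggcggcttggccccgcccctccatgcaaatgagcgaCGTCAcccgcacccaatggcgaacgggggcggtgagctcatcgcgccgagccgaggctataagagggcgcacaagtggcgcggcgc

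JUN: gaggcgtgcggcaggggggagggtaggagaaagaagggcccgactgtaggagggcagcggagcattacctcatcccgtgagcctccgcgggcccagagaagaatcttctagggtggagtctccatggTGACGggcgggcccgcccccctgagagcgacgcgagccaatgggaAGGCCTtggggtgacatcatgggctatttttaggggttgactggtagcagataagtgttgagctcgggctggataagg

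In 6 of 7 genes a peak lay over the TSS, and in the seventh, FOSL1, the nearest peak began 13 bases downstream of it. The share of all gene starts under a peak was not counted, because no hg19 gene annotation was used. In those 6 genes the peak over the TSS was also the highest scoring one in the window. Scores of these 6 peaks ran from 127.68 at JUN to 1011.72 at FOSB with a median of 399, and those of the other 20 peaks in the windows from 58.37 to 760.19 with a median of 90.9. The ranges overlapped. Widths ran from 532 to 3215 bases over the TSS and from 309 to 1333 bases elsewhere. All 6 peaks over a TSS scored above the median of the list (108.9). Of all 26 member peaks 12 did (46.2%), against 49.9% of the list, a share near that of the list.

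**Figure D1:**
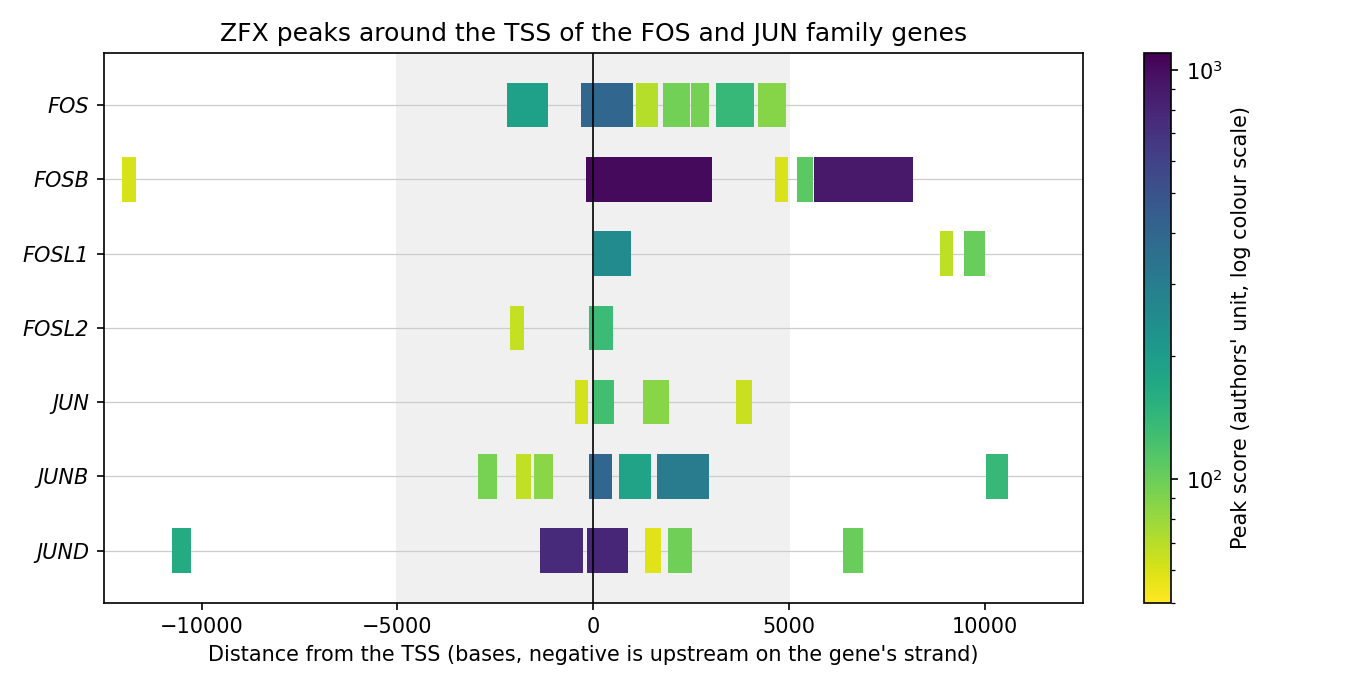
Position and score of ZFX peaks around the TSS (0 on the horizontal axis, in bases, oriented with the gene) of the 7 genes, with the window of 5 kb on each side in grey. Boxes are peaks to scale and darker boxes have higher scores; close rows of boxes run across FOS, JUNB and JUND, FOSB has 1 wide dark peak over its TSS and another dark one outside its window, and FOSL1 and FOSL2 have few peaks.

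FOS, whose protein is the best known partner of JUN in AP-1, had 7 peaks in its window, the largest number among the 7 genes. With 2 kb on each side it had 4, level with JUND and below JUNB with 5. One peak upstream reached from 2190 to 1162 bases before the TSS, with a width of 1029 bases and a score of 191.77. The peak over the TSS (chr14:75745168-75746489) reached from 313 bases upstream to 1008 bases downstream and scored 396.13, a score that 12.0% of the list reached. It was followed by 5 weaker peaks downstream, with scores of 70.30, 96.66, 94.83, 139.10 and 87.64 in the direction of transcription. Scores thus did not fall steadily with distance, since the fourth of these was the strongest of the 5. Gaps between these downstream peaks and the one over the TSS were 96, 125, 4, 197 and 109 bases, and the gap to the upstream peak was 848 bases.

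When peaks at most 1 kb apart were joined, all 7 FOS peaks formed a single run of 7109 bases (chr14:75743291-75750399), of which 80.6% lay under a peak. No other run of the list held 7 peaks, and 2 of its 11962 runs, that of FOS included, were at least as long. FOS was also the gene with the most bases under peaks, 57.3% of its window.

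FOSB, another immediate early member of the family, differed from FOS in form. Its window held 2 peaks only, but the one over the TSS (chr19:45971072-45974286) covered 3215 bases, from 181 upstream to 3033 downstream, and scored 1011.72. In width it ranked sixth and in score 295th of the list, in which 304 peaks (2.10%) scored 1000 or more. A small peak of 351 bases followed at 4635 to 4985 bases downstream with a score of 59.62. This peak lay just inside the window and opened a run of 3 peaks that went on outside it. The next peak, from 5194 to 5623 bases, scored 108.92, and the last (chr19:45976879-45979421), from 5626 to 8168 bases, covered 2543 bases and scored 900.15. Between this last peak and the one over the TSS lay 2592 bases, with the 2 smaller peaks in them. The last peak lay outside the window, was not assigned to FOSB or another gene, and enters no count of the 26. The last peak of FOS ended 4918 bases downstream, also just inside its window, and JUND had a peak outside its own, from 6374 to 6892 bases downstream, with a score of 101.73.

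FOSL1, which encodes FRA1, had 1 peak in its window. It reached from 13 to 967 bases downstream of the TSS (chr11:65667030-65667984) and scored 250.19, which 21.9% of the list reached. Its next peaks lay outside the window, from 8867 to 9175 and from 9468 to 10012 bases downstream, with scores of 67.63 and 101.64.

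FOSL2, which encodes FRA2, had 2 peaks. The one over the TSS (chr2:28615660-28616295) reached from 119 bases upstream to 516 bases downstream and scored 133.25, and the other lay from 2120 to 1762 bases upstream with a score of 65.78. Both FOSL genes had under 10% of their window under peaks, 9.5% in FOSL1 and 9.9% in FOSL2, the smallest shares among the 7 genes.

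JUN, the central AP-1 subunit, had 4 peaks, 1 of them above the median score of the list. The peak over the TSS (chr1:59249259-59249790) reached only 5 bases upstream and 526 bases downstream, and its score of 127.68 was the lowest among the 6 genes with such a peak. A peak of 309 bases upstream, from 453 to 145 bases before the TSS, scored 61.78. Downstream, a peak from 1274 to 1942 bases scored 86.43 and one from 3650 to 4059 bases scored 65.05. Without this last one, the peaks formed a run of 2396 bases.

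JUNB, which can form AP-1 with FOS proteins but activates many targets less strongly than JUN, had 6 peaks. The peak over its TSS (chr19:12902204-12902797) reached from 106 bases upstream to 487 bases downstream and scored 402.62, close to the 396.13 of FOS although narrower, 594 against 1322 bases. The 2 peaks downstream scored 182.72 and 308.86, the second with 1333 bases the widest of the gene. The 3 peaks upstream were weaker, at 94.18, 67.12 and 85.22 from the farthest to the nearest. All 6 joined into a run of 5910 bases (chr19:12899360-12905269), which reached nearly as far upstream (2950 bases) as downstream (2959 bases). The list held 5 runs with 6 peaks or more, and FOS and JUNB were 2 of them.

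JUND, the steadily expressed member, had 2 high peaks side by side around its TSS. The one over the TSS (chr19:18391568-18392621) reached from 155 bases upstream to 898 bases downstream and scored 786.58. The one upstream (chr19:18392739-18393831), from 1365 to 273 bases before the TSS, scored 760.19, with 117 bases between them. They ranked 497th and 530th of the list. Among the 7 member peaks wholly upstream of a TSS, the next highest score was the 191.77 at FOS. Downstream lay 2 weak peaks with scores of 58.37 and 97.96, and the 4 peaks formed a run of 3876 bases.

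**Figure D2:**
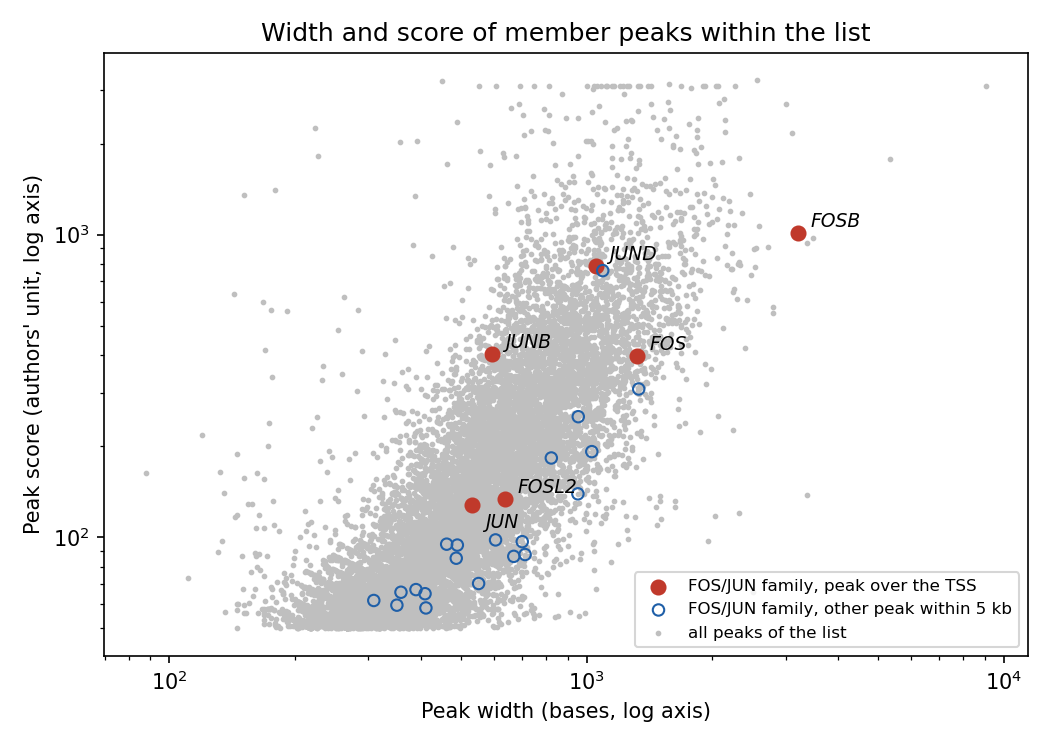
Width (horizontal, bases, log axis) and score (vertical, authors' unit, log axis) of each peak, with peaks over a member TSS as filled red points, other member peaks as open blue circles and all 14471 peaks in grey. FOSB stands at the wide edge with 3215 bases. The JUND peaks over and upstream of the TSS scored 786.58 and 760.19. Most open circles lie under the list median of 108.9.

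Set beside the list, 4 of the 7 genes had at least 4 peaks in their window, FOS, JUNB, JUN and JUND. When windows of the same size were placed on the midpoint of every peak of the list, 3.95% held at least 4. As many as 7, the number at FOS, were held by 0.207% of them, and as many as 6, the number at JUNB, by 0.574%. The member peaks are among these midpoints, so these shares include windows on peaks of FOS and JUNB themselves. Runs of 3 peaks or more touched 5 of the 7 genes, FOS, FOSB, JUN, JUNB and JUND, while 2.45% of all runs of the list were of that size. Genes and peaks are unlike units and these genes were chosen with their peaks known, so neither share is a test. FOSB and FOSL2 with 2 peaks lay at a number that 39.4% of the windows reached, and every window on a peak holds at least the 1 peak found at FOSL1.

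**Figure D3:**
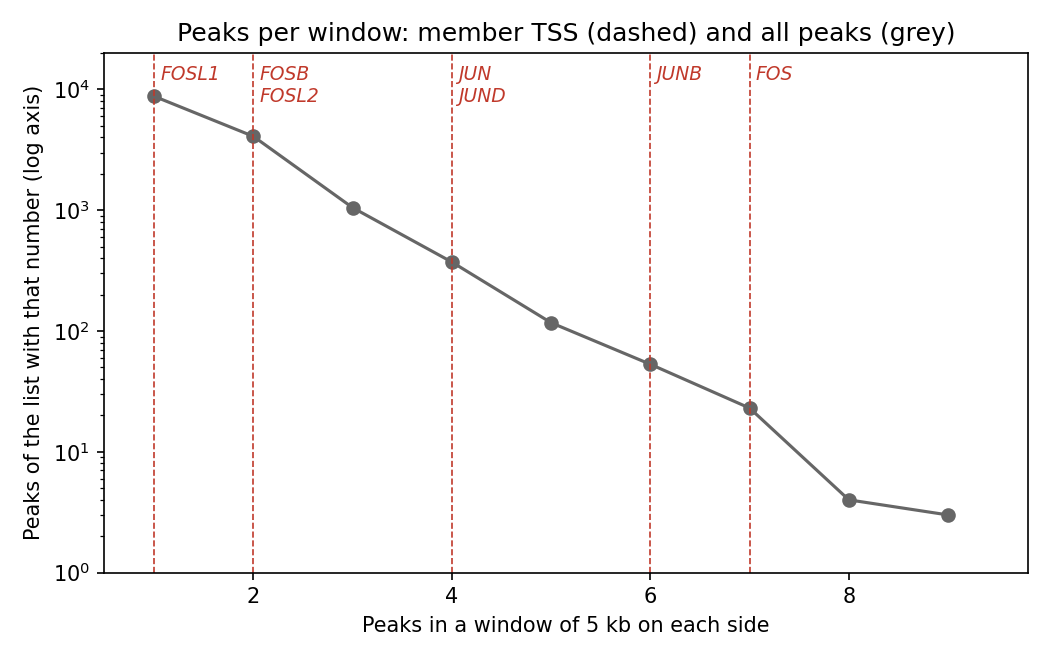
Number of peaks in a window of 5 kb on each side (horizontal) around the midpoint of every peak of the list (grey points, number of peaks on a log axis) and around the 7 gene starts (dashed red lines with gene names). The grey curve falls from 8766 peaks alone in their window to 23 with 7 peaks, the number at FOS; the member peaks are part of it.

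More bases under peaks lay downstream of the TSS than upstream of it. Gene ends were not used, so how much of the downstream side lies within each gene was not counted. Of the 26 peaks, 13 were wholly downstream, 7 wholly upstream and 6 over the TSS, and each of those 6 reached farther downstream than upstream. Summed over the genes, 15405 bases downstream and 5036 bases upstream of the TSS lay under peaks. The downstream side held more in 7 of 7 genes, by a wide margin in FOSB (3384 against 181 bases) and JUN (1605 against 314 bases) and a narrow one in FOSL2 (516 against 478 bases). By number, peaks wholly downstream outnumbered those wholly upstream in 5 of 7 genes; JUNB had 2 downstream and 3 upstream, and FOSL2 had 0 and 1. These counts were not compared with other genes, whose hg19 starts were not used here.

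**Figure D4:**
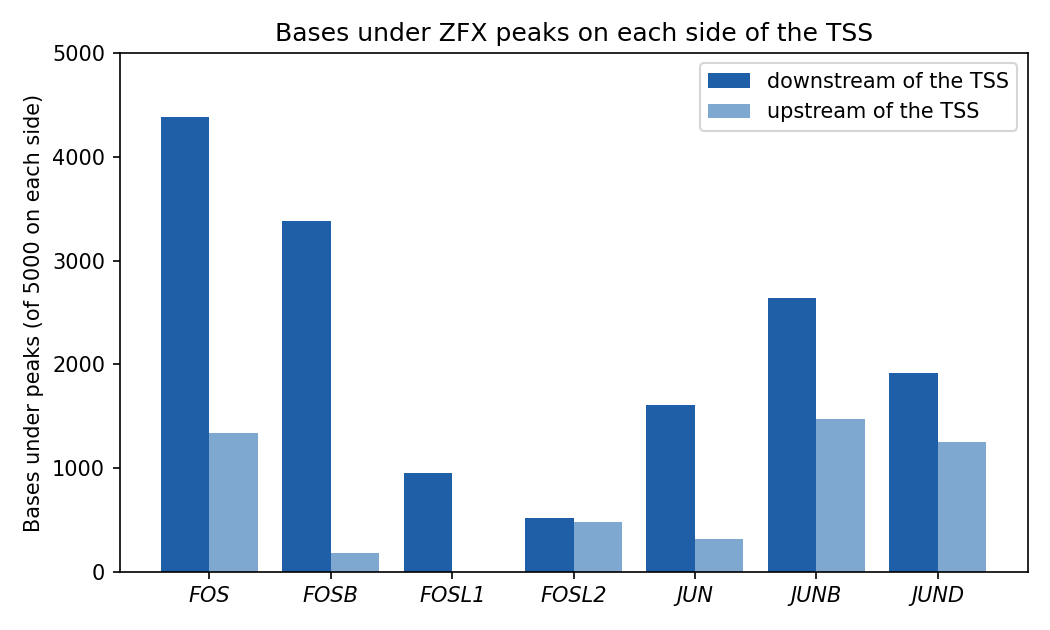
Bases under peaks (vertical, of 5000 on each side) downstream (dark bars) and upstream (light bars) of the TSS of each gene. The dark bar is the taller one in all 7 genes, with 4387 bases downstream and 1342 upstream in FOS; FOSL1 has none upstream.

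Peaks within a run were at most 1 kb apart because runs were joined at that distance. The runs at these genes held 18 gaps with a median of 158 bases, and 12 of them were at most 200 bases long. In the whole list the 2509 gaps of at most 1 kb had a median of 167 bases, and 55.6% were at most 200 bases long. Spacing at these genes was thus near that of the list.

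Promoters of the 7 genes, most of them printed above, were searched for 5 motifs, on both strands of the 300 bases from 250 before to 50 after the gene start. RefSeq entries were found for 6 of the 7 genes, 1 each, and FOSL1 was not matched. AGGCCT was found in 1 of 6, JUN, from 78 to 73 bases before the start, and in 10.9% of the 35116 promoters of the table. The CRE half-site TGACG was found in 6 of 6 and in 24.6% of all promoters. In FOS, FOSB and FOSL2 a half-site stood at nearly the same place. It lay 64 to 60, 60 to 56 and 66 to 62 bases before the start. In JUN and JUNB the half-site lay elsewhere, 123 to 119 and 137 to 133 bases before the start. FOSL2 held a further one from 201 to 197 bases before the start. In JUND a pair of half-sites overlapped to make a full CRE, and another lay 86 to 82 bases before the start. TATAAA was found in 3 of 6, FOS, FOSB and JUNB, always within 25 to 33 bases before the start, and in 11.5% of all promoters. The AP-1 site TGANTCA was found in 1 of 6, FOSL2, after its start, and in 7.71% of all promoters. The CArG box, bound by serum response factor, was found in 0 of 6 windows and in 1.29% of all promoters. Sequence more than 250 bases before the start was not searched. Matches are letters in a window, and neither a match nor its lack shows what binds there.

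Median GC content was 66.7% in the 6 promoters and 58.7% in all promoters, and the median number of CpG was 29 against 14. TGACG itself holds a CpG, and the motif shares above were not adjusted for this difference. JUND had the highest values, 77.0% and 49 CpG, and JUN the lowest, 62.0% and 16 CpG. FOSB had 64.0% and 23 CpG, and FOSL2 68.7% and 29 CpG.

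A list of 20 other genes for basic leucine zipper factors, among them ATF, MAF and BATF genes that can pair with FOS or JUN proteins, was searched for motifs in the same way, because their hg19 starts were not used here and their peaks were not counted. RefSeq promoters were found for 15 of them, 28 promoters in all. Several of these genes have more than 1 promoter in the table, some of them overlapping, so counts are given over promoters. AGGCCT occurred in 2 of 28 (7.14%, against 10.9% of all promoters), in JDP2 and NFE2L1. TGACG occurred in 10 of 28 (35.7%, against 24.6%) and TATAAA in 4 of 28 (14.3%, against 11.5%), in ATF3, ATF4 and MAF. TGANTCA occurred in 1 of 28 (3.57%, against 7.71%), in ATF5, and the CArG box in 0 of 28, against 1.29%.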

How the data were processed

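ZFX ChIP-seq of DAOY cells was described from the peak list of 1 library, without the input. The genes, lists and summaries were chosen with earlier results of these data known. Bowtie2 2.0.0 and hg19 are named in the submitters' processing notes without their roles. Peak names in the deposited file begin with MACS, while the sources used here give neither its version nor its threshold or control. The score of each peak was deposited by the authors without a unit, and read depth is unknown. Starts were read as 0-based and are printed counted from 1. Distances run from the TSS base to the outermost bases of a peak on the strand of the gene. An overlap of 1 base put a peak in a window, and peaks at most 1 kb apart were joined. Genes named are the members, those of a list of 20 leucine zipper genes that hold a motif, and the neighbours of members in the gene table; each motif was searched on both strands. Joining, window counts and motif search were tested on simulated data. No annotation or genome on hg19 was used; neighbours and promoters came from RefSeq tables on GRCh38.p14. Alternatives were windows of 2 and 10 kb, joining at 500 bp and 2 kb, midpoints, and peaks above the median score. Values were computed with pandas 2.3.3, numpy 2.4.6 and scipy 1.17.1 under Python 3.11.15, and plots were drawn with matplotlib 3.10.9.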

Additional observations from a re-analysis of the deposited data

How the results depend on the processing

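Of 14 alternatives for 5 results, 8 stayed close to the main value and 6 did not. Close meant within 1.5 times a count or, for windows on list peaks, inside the exact 95% binomial interval of the 3.95% (3.64% to 4.28%, treating peaks as independent); any change in the share under peaks was counted as a move. Keeping only peaks above the median score left 12 of the 26 peaks, 19.3% in place of 29.2% of the windows under peaks, and 1 gene in place of 5 with a run of 3 peaks or more. That gene was JUNB with 3, while FOS and JUND each had 2 in a row and 0.587% of the list's runs held 3 or more. The filter shortens runs by construction, and before it 2.45% of the list's runs held 3 or more. In the long runs, 3 of 7 peaks at FOS and 3 of 6 at JUNB scored above the median. Run length thus depends on whether weaker peaks are kept, at these genes and in the list. The share of the window under peaks was 49.2% with 2 kb on each side and 17.7% with 10 kb, and 6.82% of windows of 10 kb on each side of a list peak held 4 or more, in place of 3.95%; both follow from the window size. Joining at 500 bp split the runs of JUN and JUNB, whose largest then held 2 and 3 peaks, and took the upstream peak from FOS, leaving 6. Joining at 2 kb gave FOSB a run of 4 and JUN one of 4. By gene, 2 kb on each side left 4 peaks at FOS, below JUNB with 5, and 1 at FOSB, and 10 kb gave 4 at FOSB and 3 at FOSL1. All 7 genes had a peak within 250 bp of the TSS, a share that was not counted for other genes. No paired analysis was possible because the list comes from 1 library and no test was made. Depth is unknown, so missed weak sites cannot be counted.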

Other observations

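The surroundings of the 7 genes differed. Within 500 kb of its TSS, JUN had 7 peaks, of which 4 lay in its window of 5 kb on each side, and FOSL2 had 6, of which 2 did. FOSL1 had 64 peaks within 500 kb and 1 in its window. FOS had 24 and JUND 34, FOSB 32 and JUNB 47. Around FOS, 10 peaks lay within 50 kb, 7 of them in its run, and no further peak lay between 50 and 100 kb away.

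Neighbours of the members were named by the order of genes in the RefSeq table on GRCh38.p14. Their distances and their places on hg19 were not used here. HOOK2 overlaps JUNB and PRDX2 follows it, FOSL2-AS1 overlaps FOSL2, and JUN-DT, a noncoding RNA gene, lies next upstream of JUN. MIR3188, a microRNA gene, is next upstream of JUND. Whether the upstream JUND peak scoring 760.19 lies near MIR3188 was not examined. FOSL1 stands between C11orf68 and CCDC85B. FOSB lies between ERCC1 and the tRNA gene TRU-TCA1-1. The peak scoring 900.15, at 5626 to 8168 bases downstream of the FOSB start, was not assigned to a gene, because no hg19 annotation was used. FOS overlaps no other gene of the table, and both its neighbours are pseudogenes.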
